A study of Mus musculus with 14 samples.

Results

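The 7 genes described here form the core of steroid hormone sensing in the mammary gland: the estrogen receptor gene Esr1, the progesterone receptor gene Pgr, the glucocorticoid receptor gene Nr3c1, and Foxa1, Cited1, Greb1 and Prom1, which act with these receptors, respond to them or mark the cells that carry them. They were found by the gene name printed for each probe on the array, older synonyms included, which gave 13 probes out of 41174. All 7 genes were among the 23644 genes tested, each through the probe with the brightest signal where a gene had several. With the probe used for each gene, Esr1, Pgr, Foxa1, Cited1 and Prom1 had their highest mean level in the virgin P5 population of sorted mammary cells. All 5 fell there in pregnancy, while Nr3c1 rose and Greb1 had its highest level in virgin P6. For Esr1 the virgin P5 and P6 arrays overlapped. A second Esr1 probe differed by 0.05 with pregnancy in P5, against -2.57 for the probe used.

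The series holds 14 arrays of total RNA from mouse mammary cells sorted by flow cytometry, in 8 groups. Wild type mice of the FVB/N-J strain gave 6 of them, with 2 arrays each: P4, P5 and P6 from virgin mice and the same populations from pregnant mice. The labels call P4 enriched for mammary stem cells, P5 for luminal progenitors and P6 differentiated mammary epithelial cells, and they give CD24 and high CD29 as the surface markers of both P4 and P5 and low CD24 for P6. The remaining 2 groups, with 1 array each, were lineage-negative cells with high or low green fluorescent protein (GFPhi and GFPlo) from virgin transgenic mice of the FVB-Luciferase line L2G85; GFPhi is labelled as stem cell enriched and GFPlo as depleted. The promoter of that transgene, the day of pregnancy and the ages of the mice were not given in the sources used here. Whether the 2 arrays of a group stem from separate mice is not in the labels either, and p-values therefore measure only the spread between these arrays.

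Estrogen and progesterone act through nuclear receptors that bind DNA and recruit coactivators, and in the mammary gland both receptors are carried by a subset of luminal cells. These hormone-sensing cells pass the signal to their neighbours through secreted factors such as amphiregulin, encoded by Areg, a route by which estrogen drives duct growth and progesterone drives side branching. FOXA1 opens chromatin for the estrogen receptor, CITED1 is a coactivator of it, GREB1 is one of its classical targets and cofactors, and prominin-1 (CD133), the product of Prom1, is a surface protein that marks hormone-sensing luminal cells of the mouse gland. The glucocorticoid receptor binds much the same DNA element as the progesterone receptor and takes part in the switch to milk secretion.

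On every array the Cy5 dye carried the sorted cells and the Cy3 dye a common reference RNA made from 11 mouse cell lines, so each level below is a log2 ratio of sample over reference, and levels are not compared between genes. The arrays had a median Cy5 intensity of 70.9 to 196 over a local background of 32 to 34.5, and 66.4% to 86.7% of probes stood well above background. Marker genes went partly against the labels. Luminal markers were at their highest in virgin P5, with a mean log2 ratio over 9 genes of 3.54 to 3.62, and Cd24a was also high there, at 3.38 to 3.67, while Itgb1, which encodes CD29, was at -1.53 to -1.34. Fast skeletal muscle genes had a mean of 3.29 to 3.44 in virgin P5, 2.72 in GFPhi and 0.96 in GFPlo, against 0.08 to 0.33 in virgin P4 and P6. Basal markers were highest in P4 (3.54 to 5.77) and GFPhi (5.34), and fibroblast markers in P6 (4.05 to 6.12) and GFPlo (5.33), where luminal markers were at -1.57 to 0.46 in P6. The populations are therefore called by their labels P4, P5 and P6 only. In sorted bulk samples such as these, fewer cells of a type and less RNA per cell cannot be told apart.

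**Figure D1:**
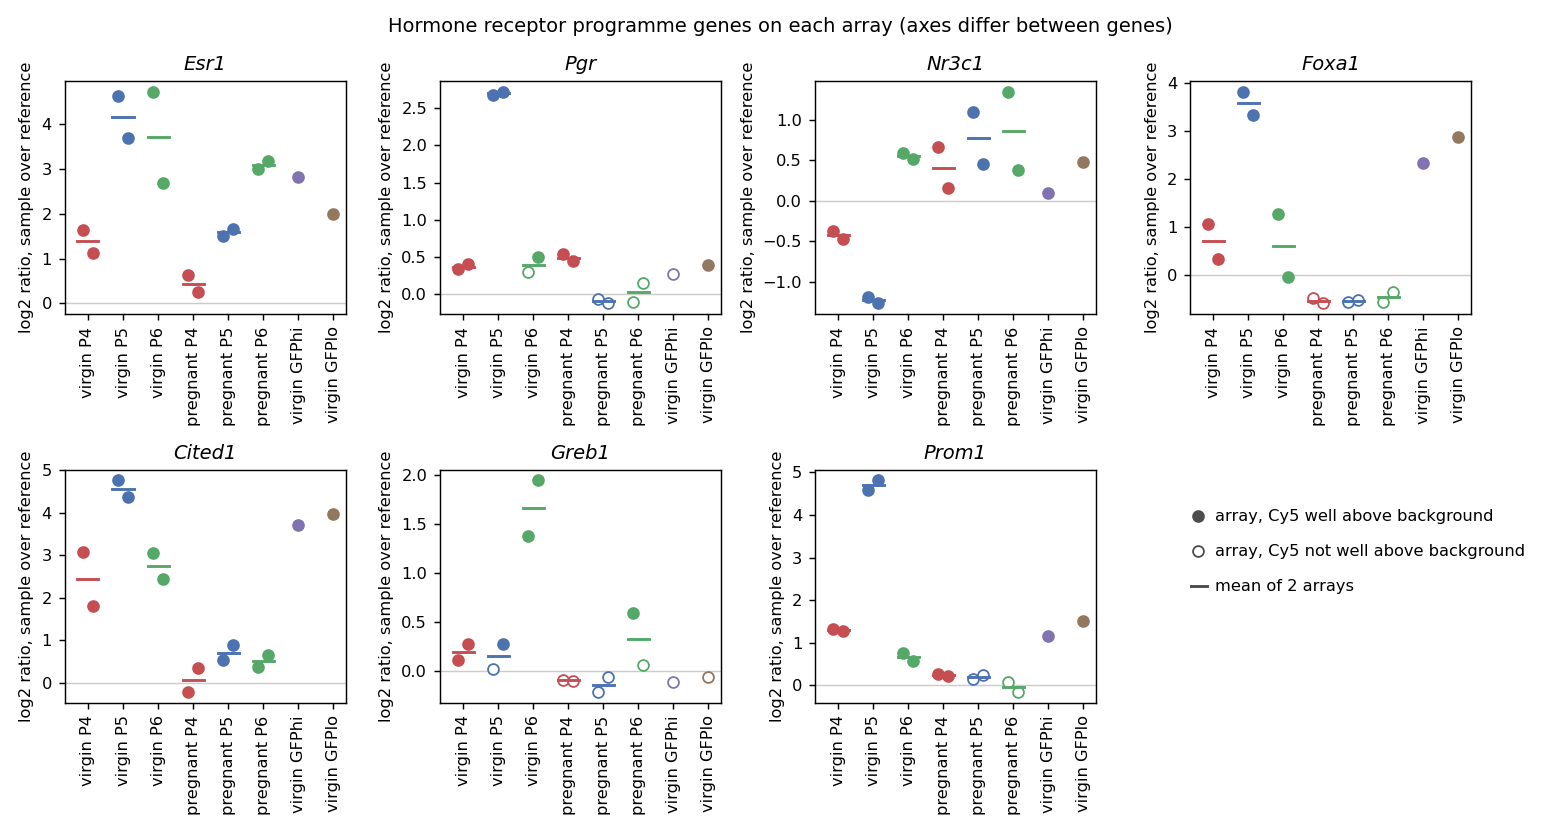
Log2 ratio of sample over reference (vertical axes, which differ between genes) for the 7 genes, with 1 point per array and the 8 groups along the horizontal axis. Esr1, Pgr, Foxa1, Cited1 and Prom1 have their highest group mean in virgin P5, Greb1 in virgin P6, and Nr3c1 its lowest in virgin P5.

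Esr1 was bright on all 14 arrays. Its log2 ratio was 4.63 and 3.69 on the virgin P5 arrays, 4.73 and 2.68 in virgin P6, and 1.64 and 1.13 in virgin P4. In pregnant mice it was 2.99 and 3.18 in P6, 1.51 and 1.67 in P5, and 0.63 and 0.24 in P4. GFPhi read 2.83 and GFPlo 1.99. P4 thus held the lowest Esr1 level in each condition, and no virgin P4 value reached those of virgin P5 or P6. By group mean the order ran from virgin P5 (4.16 ± 0.659, SD, n = 2) through virgin P6 (3.71 ± 1.45), pregnant P6 (3.09 ± 0.133), GFPhi, GFPlo, pregnant P5 (1.59 ± 0.113) and virgin P4 (1.38 ± 0.360) to pregnant P4 (0.44 ± 0.274). The arrays of virgin P5 and virgin P6 overlapped, as did virgin P6 with pregnant P6 and pregnant P5 with virgin P4. The probe behind these values was printed as 10 spots, of which 8 to 10 were usable on an array, with an SD between spots of 0.0404 to 0.191. A second Esr1 probe stayed between -0.17 and 0.39 on all 14 arrays. Its mean was also lowest in P4 in each condition, by -0.34 from P5 and -0.17 from P6 in virgin mice. In pregnant mice these differences were -0.44 and -0.29. It did not follow the first probe for pregnancy in P5 (0.05 against -2.57) or between pregnant P5 and P6 (0.15 against -1.50). The sizes of the Esr1 differences and its fall with pregnancy in P5 therefore rest on 1 of its 2 probes.

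Pgr was well above background on 8 of 14 arrays and its level stood apart in a single group. Virgin P5 read 2.68 and 2.73, while the other 12 arrays lay between -0.13 and 0.54. Virgin P4 was at 0.33 and 0.40, virgin P6 at 0.30 and 0.49, pregnant P4 at 0.54 and 0.44, and the GFPhi and GFPlo arrays at 0.26 and 0.38. The 4 arrays of pregnant P5 (-0.07 and -0.13) and pregnant P6 (-0.11 and 0.15) were not well above background. The second Pgr probe was also highest in virgin P5, with 0.95 and 0.80 and no other array above 0.17. The reference RNA was not well above background for Pgr or Prom1 on any array, so for these genes the ratio is taken over a reading near background.

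Nr3c1 was measured on all 14 arrays and ran the other way. Its lowest values were in virgin P5, at -1.19 and -1.27, followed by virgin P4 at -0.38 and -0.47. Virgin P6 read 0.59 and 0.52, and the pregnant groups read 0.66 and 0.16 in P4, 1.10 and 0.46 in P5, and 1.35 and 0.38 in P6. GFPhi was at 0.09 and GFPlo at 0.48. No array of virgin P4 or P5 overlapped with any other group, whereas the 3 pregnant groups overlapped with one another. In pregnant mice replicate 1 was the higher array in each of the 3 populations. The other 3 Nr3c1 probes gave smaller differences of the same sign between virgin P5 and P6 and between virgin and pregnant P5.

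Foxa1 was detected on all 8 virgin arrays and on none of the 6 pregnant arrays. Virgin P5 read 3.82 and 3.34, GFPlo 2.88 and GFPhi 2.35. Virgin P4 was lower, at 1.08 and 0.34, and virgin P6 read 1.28 and -0.04, so these 2 groups overlapped. The pregnant values lay between -0.58 and -0.33, which is the level of background on this probe. Foxa1 had 1 probe on the array.

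Cited1 was well above background on all 14 arrays and separated virgin from pregnant mice without overlap. The 8 virgin arrays lay between 1.82 and 4.76 and the 6 pregnant arrays between -0.21 and 0.90. Among virgin groups it was highest in P5 (4.76 and 4.38), then in GFPlo (3.96) and GFPhi (3.71), and lower in P6 (3.06 and 2.45) and P4 (3.07 and 1.82), whose arrays overlapped. In pregnant mice it was 0.53 and 0.90 in P5, 0.36 and 0.67 in P6, and -0.21 and 0.35 in P4. Across the 14 arrays the Cited1 and Foxa1 levels had a correlation of 0.947.

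Promoter sequences are shown for Foxa1, Cited1 and Greb1, since at least 1 RefSeq promoter of each (GRCm38.p6, 250 bases before the annotated start) held a searched motif. A further Cited1 promoter, at chrX:102251844-102252093, held none, and none was found in those of Esr1, Pgr and Prom1. A set of 4 motifs was searched on both strands in 11 promoters of 6 of the genes: the estrogen response core GGTCA, the full estrogen response element GGTCANNNTGACC, which contains that core on each strand, the element bound by the progesterone and glucocorticoid receptors GNACANNNTGTNC, and the forkhead motif TGTTTAC. Capitals mark the core, as GGTCA or its reverse complement TGACC, and in Foxa1 also the reverse complement of the forkhead motif. Cited1 and Greb1 are shown at their outermost start. All 3 genes lie on the minus strand, with Foxa1 at chr12:57546112-57546361, Cited1 at chrX:102252182-102252431 and Greb1 at chr12:16800887-16801136, and each sequence is written 5′ to 3′ along the gene.
Foxa1: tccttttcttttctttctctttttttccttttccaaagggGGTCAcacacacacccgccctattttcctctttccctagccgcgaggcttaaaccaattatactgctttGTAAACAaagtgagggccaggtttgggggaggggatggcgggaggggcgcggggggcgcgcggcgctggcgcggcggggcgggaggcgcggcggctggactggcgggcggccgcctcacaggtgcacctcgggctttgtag
Cited1: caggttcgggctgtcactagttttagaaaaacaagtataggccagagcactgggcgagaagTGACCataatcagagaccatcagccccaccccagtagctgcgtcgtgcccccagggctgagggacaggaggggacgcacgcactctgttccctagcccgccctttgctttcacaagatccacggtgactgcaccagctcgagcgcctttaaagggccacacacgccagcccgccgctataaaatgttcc
Greb1: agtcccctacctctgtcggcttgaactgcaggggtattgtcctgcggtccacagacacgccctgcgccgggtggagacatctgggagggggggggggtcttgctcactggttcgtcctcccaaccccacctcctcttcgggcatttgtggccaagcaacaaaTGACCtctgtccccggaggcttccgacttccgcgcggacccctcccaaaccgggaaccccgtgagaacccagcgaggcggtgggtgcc
No full estrogen response element and no progesterone and glucocorticoid element was found in the 11 promoters. Of 32851 mouse promoters of the same length, 35.2% held the core, 3.17% the forkhead motif, 0.387% the progesterone and glucocorticoid element and 0.0639% the full estrogen element. A match is a description of these letters and not a measured binding site.

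Greb1 was well above background on 6 of 14 arrays and had a pattern of its own. Virgin P6 read 1.38 and 1.95, above every other array. Pregnant P6 followed with 0.59 and 0.06, and the first of these was the highest of the other 12. Virgin P4 was at 0.11 and 0.28 and virgin P5 at 0.03 and 0.28, while GFPhi read -0.11, GFPlo -0.05, pregnant P4 -0.08 and -0.10, and pregnant P5 -0.21 and -0.06. The correlation of Greb1 with each of the other 6 genes over the arrays was between -0.08 and 0.42.

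Prom1 stood far above its other levels in virgin P5. Its log2 ratio was 4.59 and 4.81 in virgin P5, 1.51 in GFPlo, 1.32 and 1.28 in virgin P4, 1.17 in GFPhi, and 0.75 and 0.56 in virgin P6. The pregnant arrays read 0.26 and 0.23 in P4, 0.14 and 0.23 in P5, and 0.07 and -0.16 in P6, and only those of P4 were well above background with this probe. No virgin array overlapped with a pregnant one. The second Prom1 probe read 3.15 on both virgin P5 arrays and at most 0.58 elsewhere, and it was also well above background on pregnant P6 replicate 1. The Prom1 and Pgr levels had a correlation of 0.951 over the 14 arrays, and each ran against Nr3c1, at -0.863 and -0.832. Both Prom1 and Pgr stood far higher on the virgin P5 arrays than on any other, and the correlations were not computed without those arrays.

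**Figure D2:**
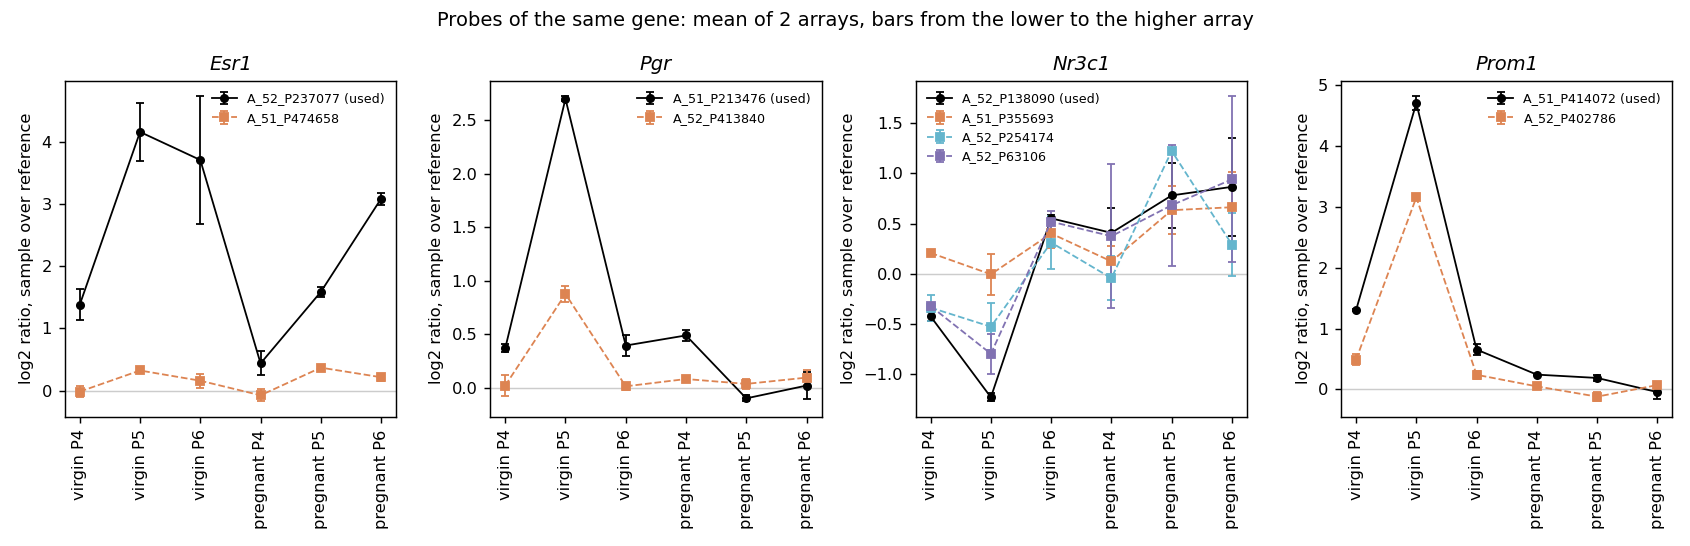
Log2 ratio of sample over reference for each probe of the 4 genes with several probes; points are means of 2 arrays and bars run from the lower to the higher array in the 6 replicated groups. Both probes of Pgr and Prom1 peak in virgin P5, the 4 Nr3c1 probes share their lowest mean there, and the second Esr1 probe stays near 0.

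The comparison of P4 with P5 asks how the population labelled as stem cell enriched differs from the luminal one. In virgin mice 5 of the 7 genes were lower in P4 and none was higher, and the median difference of the 7 was -2.33 against 0.03 for all genes; 11.4% of all genes passed the test here (limma's moderated test with Benjamini-Hochberg adjustment over all genes, adjusted p under 0.05). Prom1 differed most, being 10.5-fold lower in P4 (log2 difference -3.40, SE 0.141, adjusted p = 1.12e-05). Foxa1 was 7.32-fold lower (-2.87, SE 0.406, adjusted p = 0.00243), Esr1 6.86-fold lower (-2.78, SE 0.584, adjusted p = 0.0167), Pgr 5.04-fold lower (-2.33, SE 0.136, adjusted p = 3.63e-05) and Cited1 4.37-fold lower (-2.13, SE 0.411, adjusted p = 0.0115). All 5 were lower in P4 on both pairs of arrays scanned together, with Pgr at -2.35 and -2.32 and Cited1 at -1.69 and -2.56. The Nr3c1 difference was 0.80 (adjusted p = 0.197), and it passed with the replicate number as a block (adjusted p = 0.00381). For Greb1 the difference was 0.04, with a 95% interval from -0.49 to 0.57. Alongside these genes, 5 of 9 luminal markers and 5 of 6 fast skeletal muscle markers were lower in P4 and 8 of 8 basal markers higher, and the part of these cell types in the result was not tested. The Esr1 call was lost without virgin P4 replicate 1 (adjusted p = 0.0642) or 2 (0.121), without virgin P5 replicate 1 (0.121) and without the arrays of scan 3 (0.061), and the Cited1 call without virgin P4 replicate 2 (0.0618) or virgin P5 replicate 1 (0.0836). The Foxa1 call was lost with the scanner's own log ratio (-2.47, adjusted p = 0.191), and the mean of both Esr1 probes gave -1.56.

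Virgin P4 and P6 differed in 3 of the 7 genes, where 10.3% of all genes passed. Greb1 was 2.76-fold lower in P4 than in P6 (-1.47, SE 0.233, adjusted p = 0.00427) and Esr1 5.02-fold lower (-2.33, SE 0.584, adjusted p = 0.0387), while Prom1 was 1.57-fold higher (0.65, SE 0.141, adjusted p = 0.0209). The Nr3c1 difference of -0.98 did not pass (adjusted p = 0.118) unless the replicate number was a block (adjusted p = 0.00168). Pgr, Foxa1 and Cited1 differed by -0.03, 0.09 and -0.31. All 6 fibroblast markers were lower in P4 in the same comparison, and their part in the result was not tested. The Esr1 call was lost under 15 of 25 alternatives. Among these were the removal of virgin P4 replicate 1 or 2 (adjusted p = 0.115 and 0.224), of virgin P6 replicate 1 (-1.30, adjusted p = 0.115) and of any 1 of the 6 pregnant arrays (0.0536 to 0.0642). With local backgrounds left as the scanner gave them, the Esr1 difference was -0.71 (adjusted p = 0.341) and the Greb1 difference -0.61 (0.458), while the scanner's log ratio gave -2.66 for Greb1. The Prom1 call was lost under 7 of 24 alternatives, and its second probe differed by 0.25. Among these alternatives were the scanner's log ratio (difference 0.95, limma adjusted p = 0.397), the series table (0.95, 0.367) and median centring (0.69, 0.302). Others were the removal of virgin P4 replicate 1 (difference 0.63) or 2 (0.67) or of virgin P6 replicate 2 (0.55).

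Between virgin P5 and P6, 6 of the 7 genes differed, where 16.1% of all genes passed. Prom1 was 16.5-fold higher in P5 (4.05, SE 0.141, adjusted p = 2.18e-06), Foxa1 7.77-fold (2.96, adjusted p = 0.00121), Pgr 4.95-fold (2.31, adjusted p = 1.24e-05) and Cited1 3.53-fold (1.82, adjusted p = 0.0166). In the other direction, Nr3c1 had 3.43-fold less signal in P5 (-1.78, SE 0.329, adjusted p = 0.00605) and Greb1 2.84-fold less (-1.51, SE 0.233, adjusted p = 0.00229). Esr1 was the gene that did not pass: the difference was 0.45, with a 95% interval from -0.88 to 1.79, although with local backgrounds as given it was 2.06 and passed (adjusted p = 0.00839). The other 3 Nr3c1 probes gave differences of -0.41, -0.84 and -1.31, and the mean of all 4 probes did not pass (-1.08, adjusted p = 0.0777), nor did the probe used when arrays were only centred on their median (adjusted p = 0.463). The Cited1 call was lost without virgin P5 replicate 1 (adjusted p = 0.105) or 2 (0.053) or virgin P6 replicate 2 (0.112), the Greb1 call with local backgrounds as given (-0.65, 0.414, against -2.96 with the scanner's log ratio) and the Foxa1 call with the scanner's log ratio (0.123). In the same comparison 8 of 9 luminal and 5 of 6 muscle markers were higher in P5 and 6 of 6 fibroblast markers lower, and their part was not tested.

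**Figure D3:**
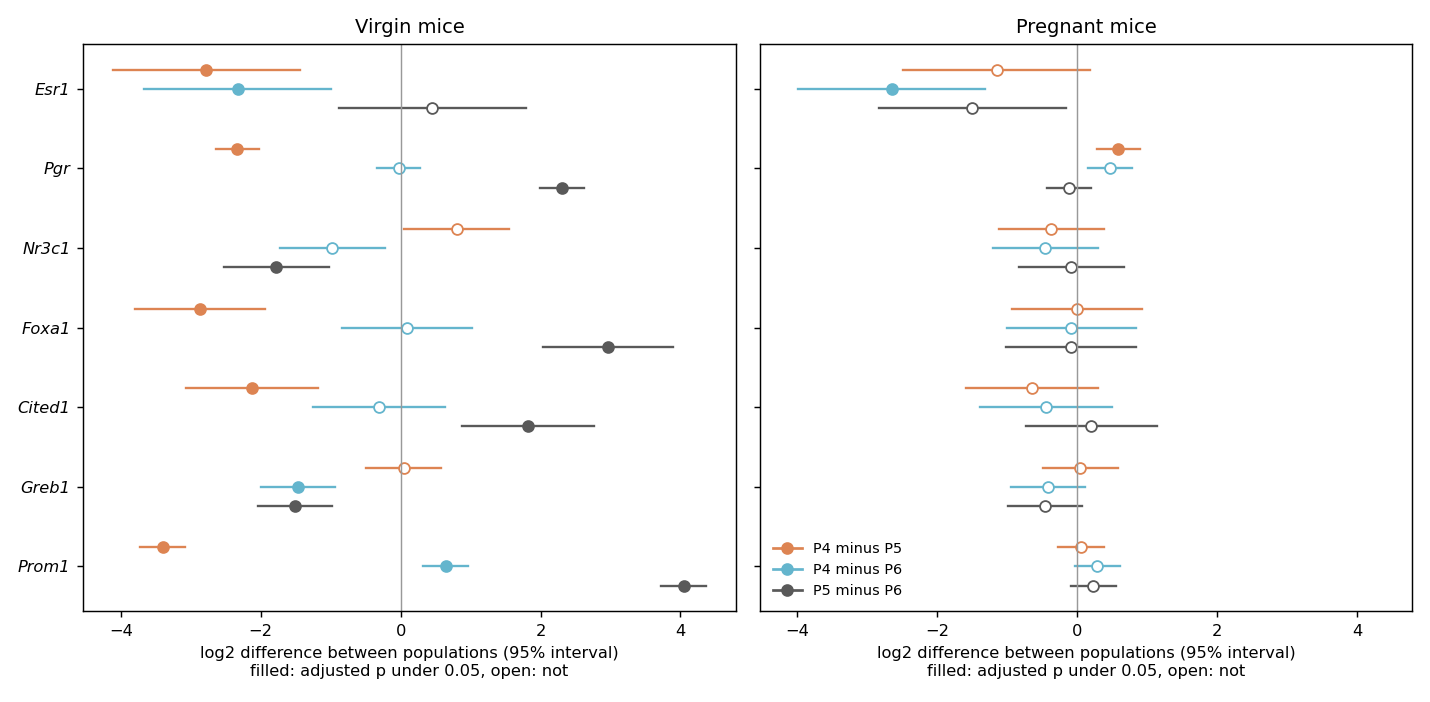
Log2 differences between populations (horizontal axis) with 95% intervals for the 7 genes, in virgin and in pregnant mice; filled points had an adjusted p under 0.05. The virgin differences of P4 from P5 reach -3.40 for Prom1, and 2 of the differences in pregnant mice passed.

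In pregnant mice few of these genes passed between the same populations, although more genes of the array did. With the probes used, Foxa1 was not well above background in any pregnant group. Nor were Pgr and Prom1 in pregnant P5 and P6, or Greb1 in pregnant P4 and P5. Between groups that both read at background, these tests could hardly show a difference. Pgr was the single gene of 7 called between P4 and P5, where 22.6% of all genes passed. It was higher in P4 by 0.59 (SE 0.136, adjusted p = 0.0153). Its second probe, not well above background in either group, differed by 0.05. With the probe used the difference was at least 1.43-fold, since the P5 arrays were not well above background. Such bounds set the mean Cy5 signal of the brighter group against that of the dimmer one. On each dimmer array the gene's own reading was used, or the lowest Cy5 signal of any probe well above background where that was higher. Without dye-swapped arrays the bounds are open to dye bias. With the replicate number as a block Esr1 (-1.15, adjusted p = 0.0269) and Cited1 (-0.65, 0.0343) passed too. Each share of all genes in this paragraph is without the block. The Pgr call was lost without pregnant P4 replicate 1 (0.0861), without pregnant P5 replicate 2 (0.0775) and under 4 other alternatives, and the scanner's log ratio gave 3.22. Between P4 and P6, where 12.1% passed, Esr1 was the single gene called and was 6.28-fold lower in P4 (-2.65, SE 0.584, adjusted p = 0.0193). The Esr1 difference was -2.94 within scan 2 and -2.36 within scan 3, and the call was lost on leaving out any 1 of the 4 arrays compared (0.0613 to 0.0981). In this comparison 6 of 6 fibroblast markers were lower in P4 and 5 of 9 luminal and 4 of 8 basal markers higher, and their part was not tested. The block added Pgr (0.47, adjusted p = 0.0283) and Nr3c1 (-0.46, 0.0399). None of the 7 passed limma's test between P5 and P6, where 26.9% of all genes did; at an unadjusted p under 0.05 there were 1 of the 7 and 8809 of all genes. That gene was Esr1, with less in P5 (95% interval of the log2 difference from -2.83 to -0.16, adjusted p = 0.096), and with the block it passed (adjusted p = 0.00796).

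Pregnancy was followed within each population, pregnant minus virgin. In P5 6 of the 7 genes changed, 5 of them down, with a median difference of -2.80 against 0.04 for all genes, of which 21.4% passed. Prom1 fell by 4.51 on the log2 scale (SE 0.141, adjusted p = 2.64e-06), at least 21.6-fold with the probe used. That bound rests on the Cy5 readings themselves, with a log2 mean of 10.62 in virgin and 6.19 in pregnant P5. Its second probe differed by -3.27. Pgr fell by 2.80 (SE 0.136, adjusted p = 1.3e-05), at least 6.86-fold with the probe used. The second Pgr probe differed by -0.84, and the mean of both probes by -1.82. Foxa1 fell by 4.10 (SE 0.406, adjusted p = 0.000311), a fitted change of 17.2-fold, while the Cy5 signal alone was at least 46.2-fold lower. Cited1 fell 14.5-fold (-3.85, SE 0.411, adjusted p = 0.00045) and remained well above background. Esr1 fell 5.95-fold (-2.57, SE 0.584, adjusted p = 0.0156). Nr3c1 rose 4.02-fold (2.01, SE 0.329, adjusted p = 0.00356), and its other 3 probes differed by 0.64, 1.48 and 1.75. Greb1 was the gene that did not pass (-0.29, 95% interval from -0.82 to 0.24).

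The reference channel moved with 3 of these genes. The mean log2 Cy3 signal of Cited1 was 10.23 on the virgin P5 arrays and 7.43 to 8.34 as a mean of the other groups, and that of Foxa1 was 8.29 against 6.15 to 6.68. A brighter reference lowers the ratio, so the ratio differences of Foxa1 and Cited1 in virgin P5 were smaller than the differences in Cy5 signal. For Nr3c1 the mean Cy3 signal was 10.73 in virgin and 9.86 in pregnant P5 while Cy5 was 9.51 and 10.64, so its ratio rose by more than its Cy5 signal. These Nr3c1 means pool scans. Its Cy3 signal was 10.29 in scan 1 and 11.18 in scan 2 for virgin P5, and 9.23 in scan 3 and 10.50 in scan 2 for pregnant P5. Virgin P4 (10.02 and 10.99) and virgin P6 (10.04 and 11.13) also read lower in scan 1 than in scan 2. The cause was not tested. Within scan 2, which holds replicate 2 of both conditions, the pregnancy differences in P5 were -4.58 for Prom1, -3.84 for Foxa1, -3.47 for Cited1, -2.85 for Pgr, -2.03 for Esr1, -0.34 for Greb1 and 1.73 for Nr3c1. The calls of Foxa1 and Cited1 were kept under all alternatives run, and those of Pgr and Prom1 under all but the filter on the reference channel, which left both genes out. The scanner's log ratio gave larger differences, of -5.94 for Pgr, -6.57 for Foxa1 and -7.46 for Prom1. The Esr1 call was lost without virgin P5 replicate 1 (-2.11, adjusted p = 0.114), pregnant P5 replicate 1 (0.0738) or 2 (0.0622) and without scan 3 (0.105), its second probe differed by 0.05, and the Nr3c1 call was lost with median centring (1.43, adjusted p = 0.375).

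Marker genes of other cells moved with these changes in P5. All 6 fast skeletal muscle genes fell, with a median difference of -3.13, from a mean log2 ratio of 3.29 to 3.44 in virgin mice to -0.38 to 1.02 in pregnant mice, and all 6 stood above background on every P5 array. Of the 9 luminal markers 6 fell and none rose (median -1.88, from 3.54 to 3.62 down to 1.41 to 2.13), including the keratin genes Krt8 (-2.85), Krt18 (-3.87) and Krt19 (-2.87). Of 4 milk protein genes 1 rose and none fell. Their mean log2 ratio was 5.71 on pregnant P5 replicate 1 and 8.97 on replicate 2, against 4.94 to 5.15 in virgin P5. In pregnant P4 it was 4.56 and 7.83, and in pregnant P6 5.10 and 6.68. The cause of this spread between pregnant replicates was not tested. Of 5 luminal progenitor markers 2 fell, and none of the 8 basal or 6 fibroblast markers passed. The part of these cell types in the changes of the 7 genes was not tested.

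**Figure D4:**
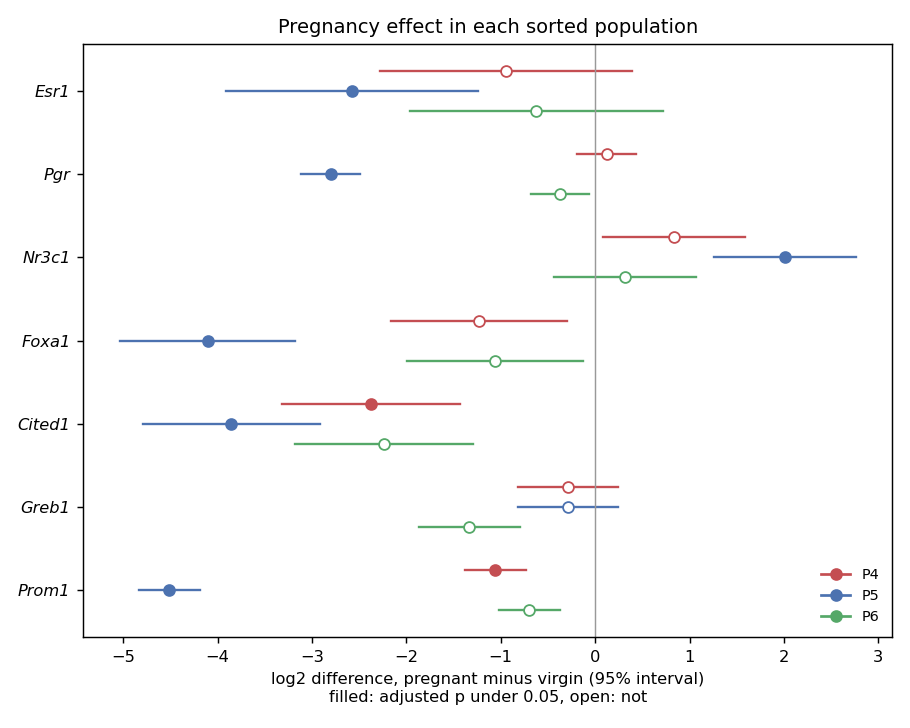
Log2 difference, pregnant minus virgin (horizontal axis, with 95% intervals), for the 7 genes in P4, P5 and P6; filled points had an adjusted p under 0.05. In P5 the 6 filled points include 5 falls between -4.51 and -2.57 and the rise of Nr3c1 at 2.01, while none is filled in P6.

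In P4 pregnancy changed 2 of the 7 genes, where 3.75% of all genes passed. Cited1 fell 5.18-fold (-2.37, SE 0.411, adjusted p = 0.0202) and Prom1 fell 2.08-fold (-1.06, SE 0.141, adjusted p = 0.00787). The median difference of the 7 was -0.95 against -0.03 for all genes. With the replicate block, Foxa1 (-1.23, adjusted p = 0.00571, from 0.169 without it) and Nr3c1 (0.83, 0.00578, from 0.263) passed as well. The 3.75% of all genes is the share without the block. Pgr differed by 0.12 (95% interval from -0.19 to 0.43) and Esr1 by -0.95 (from -2.28 to 0.39). Within scan 2 the differences were -1.46 for Cited1 and -1.05 for Prom1. The Cited1 call was lost without virgin P4 replicate 1 (-1.75, adjusted p = 0.0935), without pregnant P4 replicate 1 (0.117) and under 3 other alternatives, and that of Prom1 without virgin P4 replicate 1 (0.0665) or 2 (0.0656) and under 2 others; the scanner's log ratio gave -2.67 for Prom1.

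None of the 7 genes passed limma's test for pregnancy in P6, where 0.186% of all genes did, and 5 of the 7 and 1749 of all genes had an unadjusted p under 0.05. The largest differences were those of Cited1 (-2.24, adjusted p = 0.111) and Greb1 (-1.33, adjusted p = 0.0994). The others with an unadjusted p under 0.05 were Foxa1 (-1.06, 0.57), Prom1 (-0.70, 0.134) and Pgr (-0.37, 0.524). With the probes used, these 3 were not well above background on the pregnant arrays. Esr1 differed by -0.62, with a 95% interval from -1.96 to 0.71, and Nr3c1 by 0.31. With the replicate number as a block 4 of the 7 passed, namely Cited1 (adjusted p = 0.00383), Greb1 (0.0145), Foxa1 (0.0301) and Prom1 (0.036). The 0.186% of all genes is the share without the block, so this count has no share of all genes beside it.

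Whether the pregnancy difference itself varied between populations was tested with interaction terms. Between P5 and P4 it differed for Pgr (-2.92, SE 0.192, adjusted p = 0.000279), Foxa1 (-2.87, SE 0.574, adjusted p = 0.02) and Prom1 (-3.45, SE 0.199, adjusted p = 0.000215), where 8.03% of all genes passed. The differences within scan 2 were -2.89, -2.92 and -3.53. In P4 itself Prom1 fell, while Pgr differed by 0.12 and Foxa1 by -1.23 without passing. All 3 genes were not well above background in pregnant P5, and Foxa1 also not in pregnant P4, so the sizes of these terms rest on readings at background. The Foxa1 call was lost under 9 of 25 alternatives, including the removal of virgin P4 replicate 2 (-2.50, adjusted p = 0.0805), virgin P5 replicate 1 (0.08), pregnant P4 replicate 1 (0.0612) and pregnant P5 replicate 1 (0.0553) or 2 (0.0624). With the replicate block, Cited1 (-1.48, adjusted p = 0.00875), Nr3c1 (1.18, 0.00439) and Esr1 (-1.63, 0.0397) passed too. The F test over P4, P5 and P6, which 7.95% of all genes passed, called the same 3 genes: Prom1 (adjusted p = 0.000177), Pgr (0.000416) and Foxa1 (0.021). With the block the F test called all 7, while the shares of all genes given here are without the block.

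The study's stated contrast sets the stem cell enriched groups (P4 and GFPhi) against the depleted ones (P5, P6 and GFPlo). None of the 7 genes passed limma's test in virgin mice, where 1.62% of all genes did, and at an unadjusted p under 0.05 there were 1 of the 7, Esr1, and 1952 of all genes. Esr1 was lower in the enriched groups (log2 difference -1.68, 95% interval from -3.14 to -0.22, adjusted p = 0.457). None passed in pregnant mice, where 2.49% of all genes did, and again Esr1 was the 1 gene with an unadjusted p under 0.05, among 2656 of all genes (-1.90, adjusted p = 0.37). The difference between the conditions called none of the 7 with limma and 0.0973% of all genes, and none of the 7 but 1002 of all genes had an unadjusted p under 0.05. In this model P5 and P6 count as 1 group, and for Prom1 the virgin depleted arrays ran from 0.56 to 4.81. The GFPhi and GFPlo arrays have no replicate. GFPhi had the higher reading for Esr1 (2.83 against 1.99), and GFPlo for Foxa1 (2.88 against 2.35), Nr3c1 (0.48 against 0.09), Prom1 (1.51 against 1.17), Cited1 (3.96 against 3.71), Pgr (0.38 against 0.26) and Greb1, which was not well above background on either.

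Beside the 7 stood 8 lists of genes around the receptors, and their counts are given for pregnancy in P5, where the median of all genes was 0.04 and 21.4% of them passed. The share of a list that passed was 62.5% for the paracrine signals and markers of hormone-sensing cells, 55.6% for luminal transcription factors, 36.8% for estrogen-induced genes and 33.3% for other steroid receptors, and 15.4% to 20% for the remaining 4 lists, below that of all genes. Among the paracrine signals and markers of hormone-sensing cells, 5 of 8 measured genes fell and none rose, with a median of -1.23. Areg, which encodes the estrogen-induced growth factor amphiregulin, fell by 6.70 on the log2 scale of the ratio (adjusted p = 1.04e-05), to a level not well above background, and its Cy5 signal alone was at least 309-fold lower. Wnt4, the progesterone-induced Wnt ligand, fell by 3.62, the prolactin receptor gene Prlr by 2.01, Ly6a, which encodes the surface protein Sca-1, by 1.37 and the Wnt ligand gene Wnt5a by 1.08 on the log2 scale. Among 9 luminal transcription factors 4 fell and 1 rose (median 0.04): Myb (-5.10), Tbx3 (-5.02), Spdef (-2.30) and Gata3 (-2.99), a luminal regulator tied to estrogen receptor expression, fell, and Xbp1, a factor of the secretory pathway, rose by 2.83. Of 19 estrogen-induced genes 3 fell and 4 rose (median 0.07), with falls of Areg, Stc2 (-3.14) and Ccn5 (-2.78) and a rise of the zinc transporter gene Slc39a6 (2.35).

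Among 17 receptor coregulators, with a median of -0.48, 3 fell and none rose, the coactivator Ddx5 (-1.58) and the arginine methyltransferase Carm1 (-0.88) among them; that share of 17.6% is below the 21.4% of all genes. Of 9 other steroid receptors and related proteins, Gper1 (1.08) and Esrra (0.96) rose and Pgrmc1 (-1.36) fell, with a median of 0.20. Of 10 chaperones Bag1 rose (1.56) and Cdc37 fell (-0.76). Beside the rise of Nr3c1, 2 of 13 glucocorticoid-induced genes passed and both fell, Cebpd (-1.27) and Errfi1 (-1.12), with a median of -0.01. Of 16 genes of local steroid metabolism 3 rose, the hydroxysteroid dehydrogenases Hsd17b12 (2.51) and Hsd17b7 (1.57) and the estrogen sulfotransferase Sult1e1 (0.41), and none fell.

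**Figure D5:**
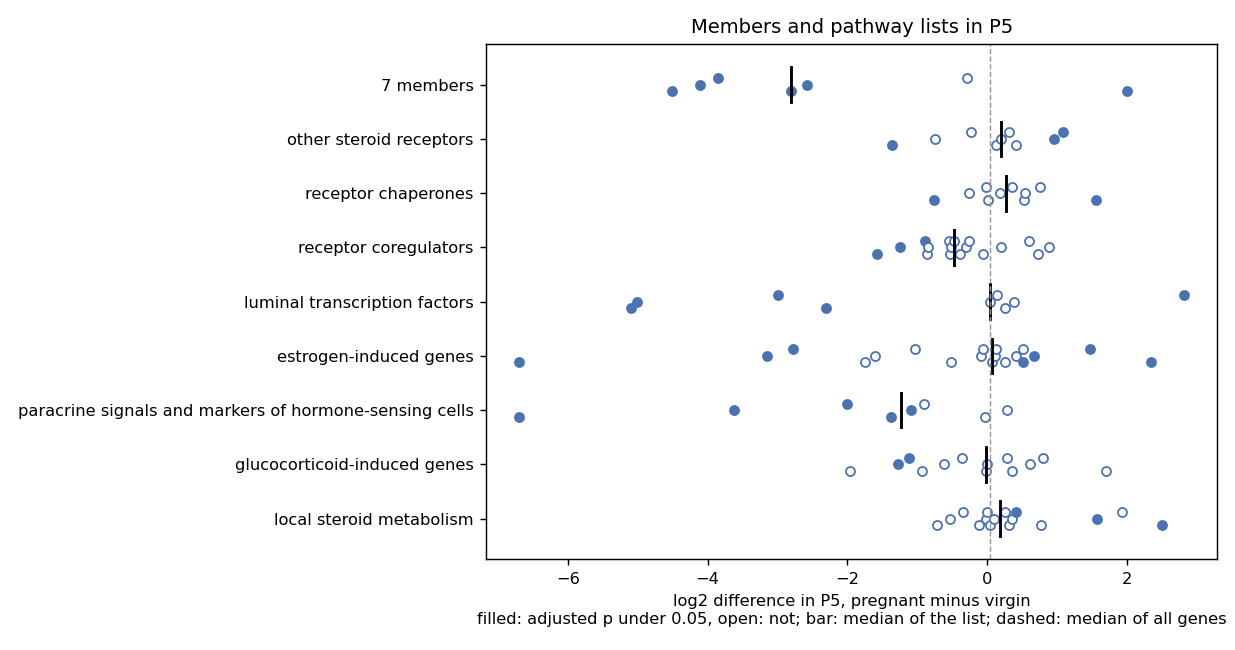
Log2 difference in P5, pregnant minus virgin (horizontal axis), for the 7 genes and for each measured gene of the 8 lists (1 point per gene); filled points had an adjusted p under 0.05, bars are list medians and the dashed line is the median of all genes. The median of the 7 genes is -2.80 and that of the paracrine and hormone-sensing list -1.23, while the other 7 lists have medians between -0.48 and 0.27.

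In virgin P4 against P5, where 11.4% of all genes passed, 5 of the 8 paracrine and hormone-sensing genes were lower in P4, Areg (-3.20), Wnt4 (-2.78) and Prlr (-2.70) among them, and 1 was higher, the metalloprotease gene Adamts18 (4.22); the median was -1.44 against 0.03 for all genes. Of the luminal transcription factors 4 of 9 were lower in P4, including Myb (-3.64) and Gata3 (-2.43), and Tfap2c was higher (1.64). Of the 19 estrogen-induced genes 3 were lower, with Stc2 at -3.47, and 2 were higher, Cxcl12 (3.41) and Igf1r (2.22). With pregnancy in P4, where 3.75% of all genes passed, Areg (-3.80, to a level not well above background), Stc2 (-2.63), Cxcl12 (-2.07) and Adamts18 (-3.62) fell, and Wnt4 rose (1.56). With pregnancy in P6, where 0.186% of all genes passed, Areg (-3.17, again to a level not well above background) and Adamts18 (-1.69) fell, while Stc2 rose (3.04).

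For each of the 7 genes the 5 most similar genes were taken by Pearson's correlation of log2 ratios over the 14 arrays, which share scans, slides and a reference. For Pgr they were Hdac11, Chst8 (0.974), Capn8, Kcnj11 and Mtmr7 (0.968), and for Prom1 Cxcl15 (0.994), Clca1 (0.988), Cyp3a25, Spdef (0.981) and Gipc2. Foxa1 was most like Tox3 (0.983), Fam25c, Abcc8, Dmbt1 and Scnn1a (0.965), and Cited1 most like Agt (0.976), Fgb, Ly6d, Fam25c and Abcc8 (0.957), so Fam25c and Abcc8 stood in both sets. Esr1 was most like Hlcs (0.927), Atp6v0e2, Pon3, Slfn10-ps and Pxylp1 (0.876). Nr3c1 was most like Pde4dip (0.945), Tmem263, S100a4, Sec24d and Rnft1 (0.919), and Greb1 most like Klf12, Uts2, Tcf21, Tac1 and Rtl3 (0.924 to 0.928). None of the 7 genes was among the 5 most similar to another.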

How the data were processed

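The 7 genes and the lists of related genes were chosen with earlier results of these data known. The authors deposited 1 scanner file per array, made with Agilent Feature Extraction 9.5.3.1 per the submitters' processing notes; per the file headers they hold the intensity of each spot in both dyes, local backgrounds, flags and a log10 ratio. A table of the series, also deposited, gives log2 ratios and matched the scanner's ratio as log2 (correlation 0.990 to 1.000; column medians from -0.0182 to 0.102).

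Intensities were corrected with limma 3.58.1 in R 4.3.3 (normexp, offset 50) and normalised within each array by loess. The offset draws ratios of dim probes towards 0. Local backgrounds marked as outliers by the scanner were replaced by the array's median, outlier spots (77 to 193 per array) were left out, and replicate spots were averaged. Probes were kept where Cy5 stood well above background on both arrays of at least 1 of the 6 replicated groups (34805 of 41174). A gene was represented by its brightest probe, and genes were named through RefSeq tables. One model of 6 groups (12 arrays) and one of the 4 combinations of enrichment and condition (14 arrays) were fitted on log2 ratios, with p-values adjusted over 23644 genes. The test was checked on simulated data.

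Named were the 7 genes, up to 4 called genes per list and comparison, the genes behind small counts, and the 5 most similar genes. The result of 1 listed gene is not reported here. The keratin genes Krt8, Krt18 and Krt19 and the genes used for sorting were named after their values were seen.

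Pregnant replicate 1 was scanned apart (scan 3) and, unlike all other arrays, was not extracted in the scanner's extended range. These arrays had 102 to 183 saturated Cy5 probes against 0 to 10 on the others. None of the 7 genes was saturated. Within a condition, a replicate number marks arrays scanned together. Arrays of the same number deviated together (correlations of 0.304 to 0.679 in virgin and 0.630 to 0.688 in pregnant mice, each over 3 pairs; -0.208 to 0.146 across conditions), so the numbers were used as a block within each condition as an alternative. Nr3c1 has no sequence shown, and no genome was used to place the probes.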

Additional observations from a re-analysis of the deposited data

Results flagged for a closer look

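The pregnancy difference varied between populations for 3 of the 7 genes. It was lower in P5 than in P4 by a log2 difference of -2.92 for Pgr, -2.87 for Foxa1 and -3.45 for Prom1, and the F test over P4, P5 and P6 gave limma adjusted p = 0.000416, 0.021 and 0.000177 for the same genes. Of 99 genes of the lists 12 passed the same P5 minus P4 test, 8 lower and 4 higher, where 8.03% of all genes passed. Lower in P5 were Wnt4 (-5.19), Tbx3 (-4.24), Myb (-3.35), Gata3 (-3.22), Areg (-2.89, with both pregnant groups not well above background), Rspo1 (-2.51), Spdef (-1.87) and Pgrmc1 (-1.57). Higher in P5 were Adamts18 (3.90), Slc39a6 (2.49), Gper1 (1.499) and Celsr2 (0.69).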

How the results depend on the processing

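No difference of the 7 genes that passed changed sign under any alternative run; of 662 such repeats 588 kept the call and 74 lost it, and of the repeats of differences that had not passed 67 gained one. Counts of genes called are out of 7, and the share of all genes called under each alternative is not set beside them. In virgin P4 against P6 (3) the count was 1 with the scanner's log ratio, the series table, median centring or local backgrounds as given. Pregnant P4 against P5 (1) gave 0 with median centring, the mean of a gene's probes or without scan 3, and 3 with the scan as a block. Pregnant P4 against P6 (1) gave 4 with the scanner's ratio or the series table, 0 with median centring or without scan 3, 2 with no filter on dim probes or the slide as a fixed or random block, and 3 with the scan as a block. Pregnant P5 against P6 (0) gave 1 with the scanner's ratio, the series table, backgrounds as given, slide or scan blocks or only the arrays compared. Pregnancy in P4 (2) gave 0 with median centring or only the arrays compared and 1 without scan 3, and pregnancy in P6 (0) gave 1 with the series table and 2 with the scan block. The P5 minus P4 difference (3) gave 5 with the slide block and 6 with the scan or random block, and the F test (3) gave 6, 7 and 7.

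A filter on Cy3 as well removed Pgr, Greb1 and Prom1, whose reference signal was dim, and the counts became 3 in virgin P4 against P5, 1 in virgin P4 against P6, 3 in virgin P5 against P6, 4 in pregnancy in P5, 0 in pregnant P4 against P5, 1 in pregnancy in P4, 1 in P5 minus P4 and 1 in the F test. With the replicate block the counts were 3 in pregnant P4 against P5 and against P6, 1 in pregnant P5 against P6, 4 in pregnancy in P4 and in P6, 6 in P5 minus P4 and 7 in the F test; the block ended no call, and it added Nr3c1 in virgin P4 against P5 and P6. Leaving out 1 array gave 3 to 5 genes in virgin P4 against P5, 1 to 3 in virgin P4 against P6, 5 to 6 in virgin P5 against P6, 0 to 2 in pregnant P4 against P5, 0 to 1 in pregnant P4 against P6 and P5 against P6, 0 to 2 in pregnancy in P4, 5 to 6 in P5 and 0 in P6, 2 to 3 in P5 minus P4, 2 to 4 in the F test and 0 in the 3 contrasts of enriched with depleted groups. Where a comparison is left with 1 array in a group, that array is assumed to vary like the other groups. For the F test and the interaction of enrichment and condition, the arrays compared are those already in the fit. The cause of these shifts was not tested. Signal over background limits Pgr, Foxa1, Greb1 and Prom1 in pregnant mice.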

Other observations

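A pair of genes of local steroid metabolism was higher in P6 than in the other populations of both conditions. Against virgin P6, 5 of the 16 genes of that list were lower in P5 and none higher, where 16.1% of all genes passed. In virgin P4 4 were lower and 1 higher, where 10.3% passed, and in each of these comparisons 11 of the 16 did not pass. Against pregnant P6, 3 of the 16 were lower in P5 and 4 higher, where 26.9% of all genes passed. In pregnant P4 3 were lower and 1 higher, where 12.1% passed. Hsd11b1, which encodes an enzyme that regenerates active glucocorticoid, had log2 differences from P6 of -5.28 in virgin P5, -5.16 in virgin P4, -5.62 in pregnant P5 and -4.83 in pregnant P4 (limma adjusted p = 0.000645, 0.00128, 0.000336 and 0.00152). Akr1c18, which encodes a progesterone-degrading enzyme, had differences of -4.90, -4.96, -3.95 and -4.03 in the same order (adjusted p = 7.7e-06, 1.81e-05, 1.68e-05 and 3.33e-05), and was not well above background in pregnant P5. All 6 fibroblast markers were higher in P6 in the same 4 comparisons, and their part in this difference was not tested. Of 13 glucocorticoid-induced genes 4 were lower in virgin P5 than in P6, Dusp1 (-2.75), Errfi1 (-1.97), Klf9 (-1.73) and Cebpd (-1.70), where 16.1% of all genes passed. In pregnant mice Dusp1 (-2.32), Cebpd (-2.26) and Errfi1 (-1.96) were again lower in P5 than in P6, and 1 of the 13 was higher. That is 30.8% of the list, close to the 26.9% of all genes that passed there. The Nr3c1 difference in this comparison was -0.09.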
